A study of Mus musculus with 30 samples.

Results

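The genes described here are 40 genes of glucose breakdown and of other steps that respond to low oxygen, most of them reported targets of hypoxia-inducible factor (HIF), in whole mouse lung. Members were the probe sets whose annotation gives exactly 1 symbol, and that symbol on the list of 40 genes. That rule took 97 of 36899 probe sets, of which 27 are control probe sets of the array maker, 18 for Gapdh and 9 for Tfrc. Of the other 70, 58 passed the filter on dim signals and were tested, among 25801 tested probe sets in all. They stand for 35 genes. Gpi1, Eno1 and Bnip3l had no probe set of their own, Gapdh had control probe sets only, and the only probe set of Car12, a carbonic anhydrase, stayed below the filter.

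HIF is a transcription factor of an oxygen-labile alpha subunit and a stable beta subunit. In cells with enough oxygen, prolyl hydroxylases mark the alpha subunit for destruction. When oxygen is scarce, the alpha subunit persists and binds a short DNA element, the hypoxia response element, near genes for glucose uptake, glycolysis, mitochondrial turnover, collagen hydroxylation, acid handling and hormones such as erythropoietin. The lung meets inhaled gas first, and long exposure to low oxygen raises the pressure in its arteries and thickens their walls.

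Animals were kept in 10% oxygen in a chamber to bring on pulmonary hypertension, and their lungs were taken after 10 h, 2 d, 4 d or 6 d. The comparison group is titled Norm, a word that the labels do not spell out. A description given for these samples mentions rejection. The titles do not, and grouping went by the titles. Each group had 2 samples, 1a and 1b, each hybridised to the 3 arrays of the Affymetrix MG-U74 version 2 set (A, B and C), which carry different probe sets. Strain, age and sex are not in the labels, nor whether 1a and 1b are separate animals, so the p-values reflect variation among these samples alone, and that variation may be technical. All 8 lung marker genes looked for were above the filter.

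Values are the deposited intensities, which have no unit and were already scaled to a common trimmed mean on each array. Before log2 was taken, low values were raised to a floor, which was 236 for A, 297 for B and 201 for C (the 40th percentile). A change is a difference of log2 means, given with its standard error (SE) from limma, and it passed when its Benjamini-Hochberg adjusted p over all 25801 probe sets was under 0.05. Where a group's mean lay at the floor, the change is a lower bound of its size. Signals of different probe sets are not compared with each other. In whole lung, fewer cells of a type and less RNA per cell cannot be told apart.

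3 arrays need naming before any result. The array titled Norm 1a of type A stands in the B table, where its Spearman correlation with the B arrays was between -0.00277 and 0.00963, and it was left out. The Norm group therefore had 1 A array, labelled Norm 1b, and every change against Norm on A rests on it, with its spread taken from the other groups. For genes measured on more than 1 array type, each array's deviations from the mean of all arrays were correlated with those on the other types. The A array labelled Norm 1b correlated best with the 4 d arrays, at 0.177 over 693 genes shared with B and 0.173 over 664 genes shared with C, against 0.0151 and -0.0166 with the Norm arrays. The A array labelled 4 d 1a had correlations of -0.0487 and 0.00881 with the 4 d arrays. Smaller departures of this kind were found for the A array of 6 d 1b and, between B and C, for the Norm arrays. No array was moved to another group, and the median changes of the members are also given without both.

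At 2 d the Gapdh control probe sets, which read the 3′, middle and 5′ parts of 1 transcript, stood apart. The 3′ to 5′ signal ratio was 3.64 to 4.60 on the 6 arrays of 2 d, against 0.815 to 1.51 on the 5 Norm arrays. It was 0.786 to 1.11 at 10 h, 0.859 to 1.49 at 4 d and 1.40 to 1.68 at 6 d. All 2 d ratios lay above every ratio of the other groups, and the 5′ signals of 2 d, 3103 and 2612 on A, were below the 8467 of the array labelled Norm 1b. Gapdh, the glyceraldehyde phosphate dehydrogenase of glycolysis, has no other probe set here, so no change of Gapdh was tested. The part of this difference in the other results at 2 d was not tested. The sample numbers of the 2 d and 6 d arrays form a block of their own, apart from those of 10 h, 4 d and Norm. The labels do not say whether these arrays were handled apart. Any such difference cannot be told apart from exposure time in the 2 d and 6 d changes against Norm.

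**Figure D1:**
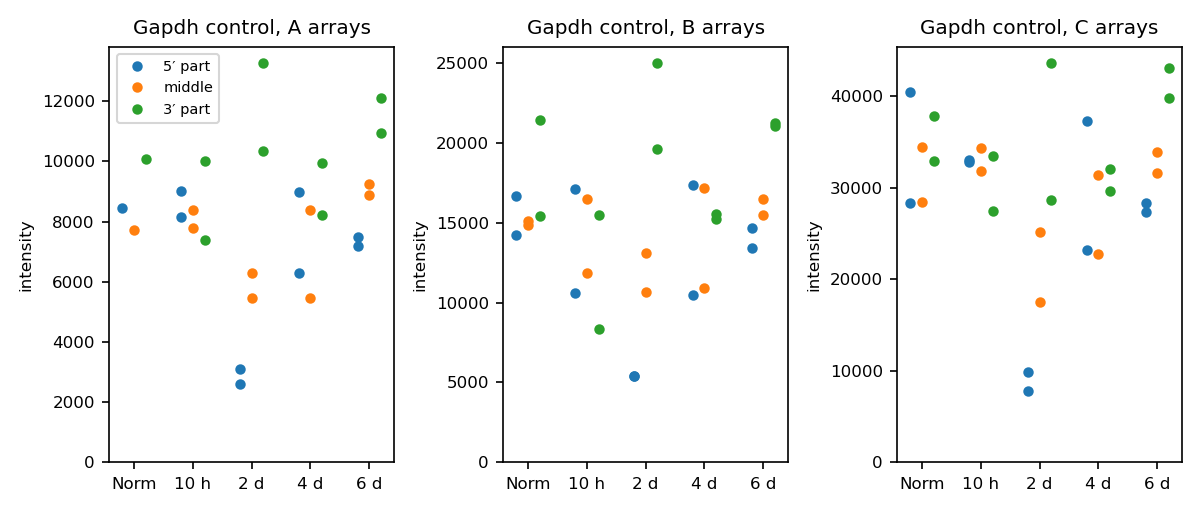
Intensity of the Gapdh control probe sets for the 5′, middle and 3′ parts of the transcript, by group, with 1 panel for each array type and 1 point for each array. The 5′ points of 2 d lie below those of all other groups on A, B and C, where the 3′ to 5′ ratio was 3.64 to 4.60.

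The promoters of 3 members are printed first, because HIF binds DNA at the letters ACGTG or GCGTG. Of these, Ankrd37 had changes that passed, and Ddit4 and Bnip3 had none. They are RefSeq sequences of mouse build GRCm38.p6, from 250 bases before to 50 bases after the annotated transcript start, read 5′ to 3′ along the gene. Capitals mark each ACGTG or GCGTG on either strand, so that a match on the opposite strand reads CACGT or CACGC. The windows are Ankrd37 at chr8:45999801-46000100 (minus strand), Ddit4 at chr10:59951721-59952020 (minus strand) and Bnip3 at chr7:138909457-138909756 (minus strand).
Ankrd37: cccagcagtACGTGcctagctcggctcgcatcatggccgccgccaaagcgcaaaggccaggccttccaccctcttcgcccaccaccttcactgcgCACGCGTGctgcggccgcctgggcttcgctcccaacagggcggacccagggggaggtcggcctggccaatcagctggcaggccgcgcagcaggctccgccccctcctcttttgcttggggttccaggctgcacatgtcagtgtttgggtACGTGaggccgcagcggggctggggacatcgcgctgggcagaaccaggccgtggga
Ddit4: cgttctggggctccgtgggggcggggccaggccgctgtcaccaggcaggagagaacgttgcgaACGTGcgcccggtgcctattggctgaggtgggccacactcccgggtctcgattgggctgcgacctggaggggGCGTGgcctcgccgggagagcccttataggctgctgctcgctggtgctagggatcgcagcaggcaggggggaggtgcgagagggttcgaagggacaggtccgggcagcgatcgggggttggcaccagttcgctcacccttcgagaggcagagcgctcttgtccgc
Bnip3: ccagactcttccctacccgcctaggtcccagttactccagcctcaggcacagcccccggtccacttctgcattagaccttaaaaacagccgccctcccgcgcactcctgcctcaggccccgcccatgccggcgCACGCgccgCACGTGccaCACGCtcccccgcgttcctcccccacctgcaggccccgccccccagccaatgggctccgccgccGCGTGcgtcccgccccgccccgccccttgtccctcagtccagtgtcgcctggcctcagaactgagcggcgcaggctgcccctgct

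The Ankrd37 window held 4 matches, of which 1 ACGTG starts 6 bases upstream of the transcript start. The Ddit4 window held 2 matches, an ACGTG 187 bases and a GCGTG 115 bases upstream. The Bnip3 window held 5 matches between 117 and 35 bases upstream, and the letters CACGTG there count as a match on each strand. Pkm and Plod1, which passed at 2 d, are not printed. Pkm had a window with 0 matches and another with 2, both ACGTG, and the Plod1 window had 2, both GCGTG. Of the 50 promoters listed for 35 member genes, 38 (76%) held a match, against 56.1% of 16016 promoters of genes on the arrays and 43.8% of all 32851 promoters of this length. ACGTG alone was in 48% of the member promoters, against 23.2% and 19.6%. These 35 genes are not the 35 tested. They include Eno1, Gapdh, Gpi1 and Car12, and no promoter was listed for Bhlhe40, Ndrg1, Slc2a3, Plod2 and Bnip3l. Some windows of a gene overlap, as for Aldoa and Eno1, and count the same match again. Most members were listed because they are reported HIF targets, so these shares are no independent finding. The member promoters also had a higher GC content, with a median of 64.7% against 59% for genes on the arrays and 52.7% for all promoters. These are matches of letters, not measured binding, and other hypoxia response elements can lie outside these windows.

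No member passed at 10 h, where 0 of 25801 probe sets passed the limma test (percent called 0). At 2 d 2 member probe sets were higher, 1 of Pkm and 1 of Plod1, where 1.86% of all probe sets passed, 0.775% higher and 1.09% lower. At 4 d 1 member, Ankrd37, was lower, as 1 of only 2 probe sets that passed (0.00775%). At 6 d none passed, of the members or of all probe sets (0%), nor when the 4 exposure times were averaged and set against Norm (0%). At an unadjusted p under 0.05, the members numbered 5 higher and 2 lower at 10 h, 4 and 2 at 2 d, 1 and 3 at 4 d, and 5 and 2 at 6 d. Among all 25801 probe sets, 829 were higher and 748 lower at 10 h, 2322 and 2542 at 2 d, 761 and 821 at 4 d, and 1121 and 1244 at 6 d.

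Counted by direction alone, 38 of the 58 member probe sets were above Norm and 18 below at 10 h, with a median change of 0.06. At 2 d 38 were above and 19 below, with a median of 0.22, and at 4 d 29 above and 27 below, with a median of 0.01. At 6 d 34 were above and 22 below, with a median of 0.05. The medians of all tested probe sets were within 0.01 of 0 at each time, and between 47.7% and 49.7% of them were above Norm. Over the 35 genes with 1 probe set each, the median was 0.11 at 10 h, 0.10 at 2 d, 0.00 at 4 d and 0.05 at 6 d.

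**Figure D2:**
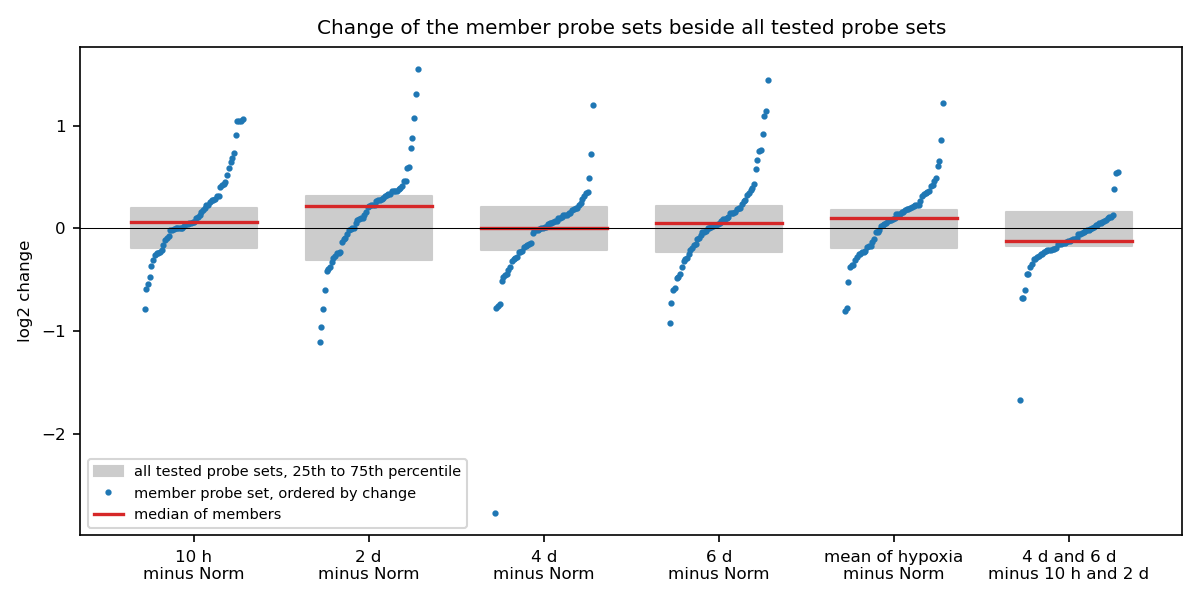
Log2 change of each of the 58 member probe sets (points, ordered within each comparison), their median (red line) and the 25th to 75th percentile of all 25801 tested probe sets (grey), for 6 comparisons. Most points lie within or just beyond the grey band, and the lowest point at 4 d is Ankrd37 at -2.77.

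Both arrays of 10 h lay above every Norm array for 22 member probe sets (37.9%, against 20.1% of all probe sets) and below for 7 (12.1%, against 20.7%). The excess was on the A arrays, where Norm is 1 array. There 55.9% of 34 members were above it, against 30.6% of all A probe sets. None of 10 members on B (0%, against 14.6%) and 21.4% of 14 members on C (against 15.5%) were above both Norm arrays. At 2 d the shares were 43.1% above and 13.8% below, against 27.7% and 26.3%, with 58.8% of the A members above, against 35.4% of all A probe sets, 30% on B, against 25.8%, and 14.3% on C, against 22.1%. At 4 d 15.5% were above and 22.4% below, against 17.8% and 18.9%, and at 6 d 34.5% and 15.5%, against 23.2% and 23.2%. At 6 d the shares above were 44.1% on A (against 33.1%), 20% on B (19.4%) and 21.4% on C (17.3%). Those below were 14.7% on A (against 32.4%), 40% on B (18%) and 0% on C (19.5%). At 4 d the shares above were 20.6% on A (against 25.6%), 20% on B (14.2%) and 0% on C (13.8%). Those below at 4 d were 23.5% on A (against 27%), 40% on B (15.1%) and 7.14% on C (15%). Without the A arrays labelled Norm 1b and 4 d 1a, an alternative chosen after seeing the data that leaves no A change against Norm, the median change of the members was 0.02 at 10 h, 0.19 at 2 d, -0.03 at 4 d and -0.05 at 6 d, in place of 0.06, 0.22, 0.01 and 0.05.

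**Figure D3:**
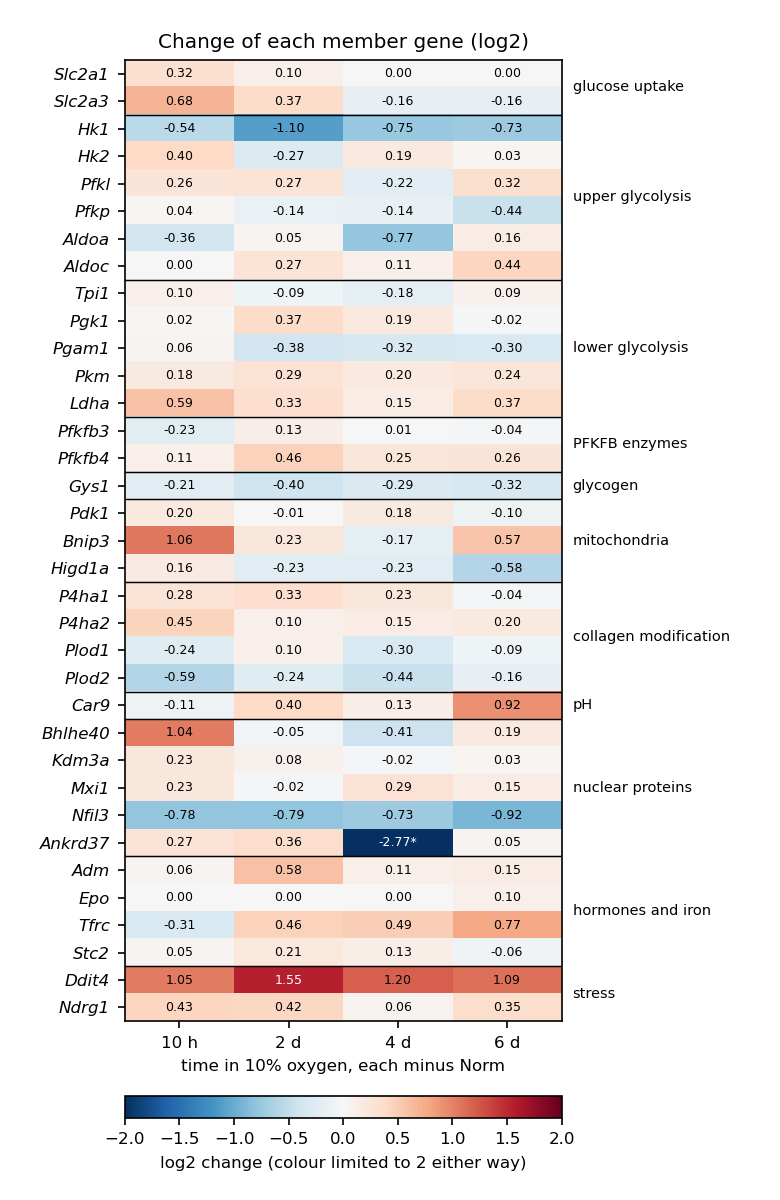
Log2 change of each of 35 member genes (rows, grouped by role, 1 probe set each) at 10 h, 2 d, 4 d and 6 d of 10% oxygen, each minus Norm (columns). Red is higher and blue lower in hypoxia, values in cells at the floor are bounds, and the asterisk marks the only change among them that passed, Ankrd37 at 4 d with -2.77.

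Ankrd37, an ankyrin repeat protein known as a HIF target, was the member with the largest change. Its probe set on B read 1613 and 2753 in Norm, 2503 and 2597 at 10 h, 2711 and 2692 at 2 d, 323 and 238 at 4 d, and 2111 and 2270 at 6 d. Both 4 d arrays lay below all 8 other arrays, and the other groups overlapped Norm. At 4 d it fell by 2.77 ± 0.22 on the log2 scale (SE, n = 2 each), or 6.80-fold, with an adjusted p of 0.00682 in limma. The 238 is below the floor of the B arrays, so that the fall is understated. Its changes at 10 h, 2 d and 6 d were 0.27, 0.36 and 0.05 and did not pass. The call was lost without either 10 h array, either 2 d array or either 4 d array, with an adjusted p between 0.0505 and 0.0700, and with only the 4 d and Norm arrays in the fit (adjusted p = 0.546), while the change stayed between -3.15 and -2.38 in all 20 alternatives.

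The nuclear proteins had no common direction. Bhlhe40, a transcriptional repressor that also belongs to the circadian clock, had 1065 on the array labelled Norm 1b, 2317 and 2068 at 10 h, 931 and 1128 at 2 d, 886 and 726 at 4 d, and 1324 and 1113 at 6 d. The 10 h arrays were above all 7 others and the 4 d arrays below all others. The 10 h change was 1.04 ± 0.24 (SE), with an adjusted p of 0.427 in limma, and did not pass. Nfil3, a repressor of the basic leucine zipper family, was measured by 1 probe set with the suffix _f_at, given to probes shared among several sequences. It read 445 on the array labelled Norm 1b and 38.4 to 304 on the 8 hypoxia arrays, with changes of -0.78, -0.79 and -0.73 and a bound of -0.92 at 6 d, none of which passed. Only 4 of 9 arrays were above the floor for Nfil3. Kdm3a, a histone demethylase, had 1396 and 1289 at 10 h, above the 1042 to 1261 of all other A arrays, a change of 0.23, while its C probe set lay between -0.60 and -0.05. Mxi1, an antagonist of MYC, was 0.29 above Norm at 4 d, with 900 and 919 against 746.

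Of the stress genes, Ddit4, an inhibitor of the growth kinase mTOR, had the highest change at 2 d, 4 d and 6 d among the probe sets that represent the 35 genes. It had 484 on the array labelled Norm 1b, 991 and 1008 at 10 h, 1480 and 1352 at 2 d, 1545 and 798 at 4 d, and 950 and 1124 at 6 d. All 8 hypoxia arrays were above the array labelled Norm 1b, the only Norm array on A. The share of all probe sets with all 8 hypoxia arrays on 1 side of Norm was not counted. This holds also for Nfil3, Hk1, Gys1 and Plod2. The 2 d arrays were above those of 10 h and 6 d, and the 4 d arrays spanned all other times. The lowest and the highest reading, 484 and 1545, fell on the A arrays labelled Norm 1b and 4 d 1a, the arrays whose labels are in doubt, and every direction against Norm here rests on those labels. The changes were 1.05, 1.55, 1.20 and 1.09 ± 0.36 (SE), with limma adjusted p-values of 0.688, 0.0690, 0.653 and 0.401, so that none passed. At 2 d the call was gained in 4 of 18 alternatives, among them without the 4 d 1a sample (adjusted p = 0.0344) and without 4 d 1b (adjusted p = 0.0325). Ndrg1, a stress-induced cytoplasmic protein, had 1856 and 1810 at 10 h, against 1357 on the array labelled Norm 1b, with changes of 0.43, 0.42, 0.06 and 0.35.

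**Figure D4:**
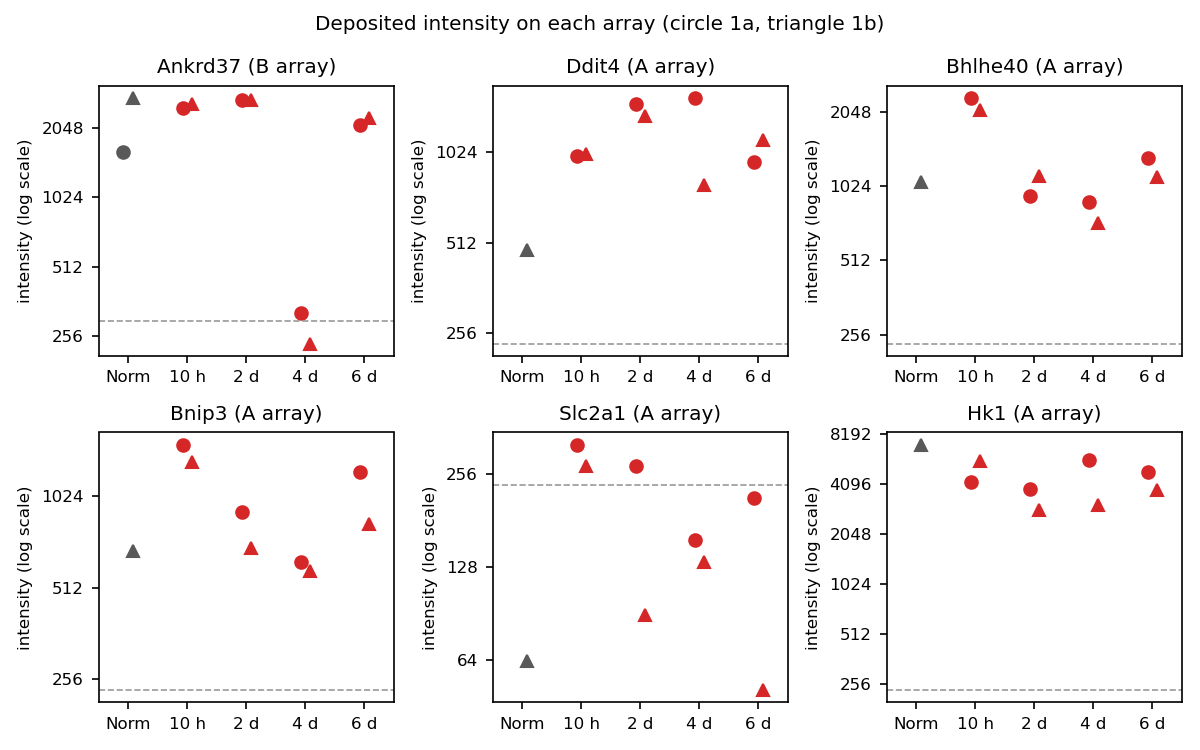
Deposited intensity on each array (log scale; circles 1a, triangles 1b; dashed line, the floor) for 6 members in Norm and after 10 h, 2 d, 4 d and 6 d in 10% oxygen. Ankrd37 has both 4 d points at 323 and 238 near the floor, and the A arrays have a single Norm point.

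Glucose uptake was read by the transporter genes Slc2a1 and Slc2a3. Slc2a1, the transporter of most tissues, lay near or below the floor of 236. It had 63.7 on the array labelled Norm 1b, 318 and 272 at 10 h, 272 and 89.3 at 2 d, 157 and 133 at 4 d, and 214 and 51.3 at 6 d. The 10 h arrays were the highest, by less than 1 intensity unit over the higher 2 d array, and the change at 10 h was at least 0.32 (adjusted p = 0.910 in limma). Slc2a3, a high-affinity transporter, was 0.68 at 10 h, but its arrays there read 127 and 640, to either side of the Norm values of 250 and 184, and its other C probe set was 0.06. Neither gene passed at any time.

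In upper glycolysis, 4 of 6 genes were above Norm and 2 below at 10 h, and 2 above and 4 below at 4 d, none past the test. Hk1, the hexokinase of most tissues, had the lowest change of the 6 at 10 h, 2 d and 6 d. It read 7064 on the array labelled Norm 1b, 4203 and 5645 at 10 h, 3810 and 2843 at 2 d, 5750 and 3061 at 4 d, and 4819 and 3783 at 6 d. All 8 hypoxia arrays were below the Norm array, with changes of -0.54, -1.10, -0.75 and -0.73 ± 0.38 (SE), and with a limma adjusted p of 0.163 at 2 d. Hk2, the inducible hexokinase, was 0.40 at 10 h and -0.27 at 2 d. Pfkl, a phosphofructokinase subunit, was -0.22 at 4 d and 0.32 at 6 d, and Pfkp, another subunit, lay between -0.44 and 0.04 on B, while its A probe sets lay between -0.28 and 0.72.

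Aldoa, the aldolase of muscle and most other tissues, had only probe sets with the suffix _f_at. The representing one had 8370 on the array labelled Norm 1b, 5774 and 7329 at 10 h, 8724 and 8580 at 2 d, 5700 and 4205 at 4 d, and 9897 and 8776 at 6 d. The 4 d arrays were below all 7 others for both Aldoa probe sets, and the change at 4 d was -0.77 ± 0.25 (SE, adjusted p = 0.672 in limma). Muscle is rich in Aldoa, and the summed signal of 10 skeletal muscle markers on A was 3861 and 7473 at 4 d, against 9499 on the array labelled Norm 1b. That sum was 996 and 930 at 10 h, 2368 and 2681 at 2 d, and 2654 and 2517 at 6 d, and 7 of the 10 markers passed the filter. The probe set of Acta1 alone gave 6076 of the 9499 on the array labelled Norm 1b, and 1700 and 3941 at 4 d. The heart muscle markers summed to 12308 to 20326 in hypoxia and 23056 on the array labelled Norm 1b. Their part in the values of Aldoa and Hk1 was not tested. Aldoc, the aldolase of brain, was at or near the floor.

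In lower glycolysis, all 5 genes were above Norm at 10 h, by 0.02 to 0.59, with a median of 0.10, and 3 of 5 were above at each later time. None passed on the probe set that represents the gene. Ldha, the lactate dehydrogenase subunit that favours lactate, was highest among them at 10 h, with 6649 and 6852 against 4499 on the array labelled Norm 1b, a change of 0.59 (adjusted p = 0.910 in limma). Its later changes were 0.33, 0.15 and 0.37. Tpi1, triose phosphate isomerase, kept within 0.18 of Norm, and Pgk1, phosphoglycerate kinase, was 0.37 at 2 d. Pgam1, phosphoglycerate mutase, was -0.38, -0.32 and -0.30 at 2 d, 4 d and 6 d, with all 6 of those arrays, at 1345 to 1741, below the 1880 of Norm.

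Pkm, pyruvate kinase, makes pyruvate at the end of glycolysis, and its probe sets differed. One A probe set, with the suffix _f_at, had 2041 on the array labelled Norm 1b, 1890 and 1937 at 10 h, 6298 and 4025 at 2 d, 2126 and 2114 at 4 d, and 4278 and 4762 at 6 d. The 2 d and 6 d arrays, whose sample numbers stand apart, were above all arrays of the other groups and overlapped each other. It rose by 1.30 ± 0.25 at 2 d (SE, adjusted p = 0.0440 in limma), and its 1.14 at 6 d did not pass (adjusted p = 0.237). The other A probe set was 0.29 at 2 d and the C probe set -0.24, and neither passed. The rise passed in 5 of 18 alternatives, and did not pass without any 1 of the 8 hypoxia samples, with adjusted p-values between 0.0548 and 0.102.

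Plod1, a lysyl hydroxylase of collagen, had 6 probe sets. One on B, with the suffix _f_at, had 1217 and 882 in Norm, 1255 and 905 at 10 h, 2197 and 2164 at 2 d, 1109 and 1162 at 4 d, and 1271 and 1452 at 6 d. Both 2 d arrays were above all 8 others, and it rose by 1.07 ± 0.21 (SE, adjusted p = 0.0440 in limma). At 2 d the other 5 Plod1 probe sets were between -0.96 and 0.78, and none passed. One on C was high at 10 h instead, with 1004 and 1201 against 541 and 528 in Norm, a change of 1.04 that did not pass (adjusted p = 0.667). The rise at 2 d passed in 7 of 20 alternatives. It was lost without any 1 sample other than Norm 1a, with adjusted p-values between 0.0566 and 0.157.

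**Figure D5:**
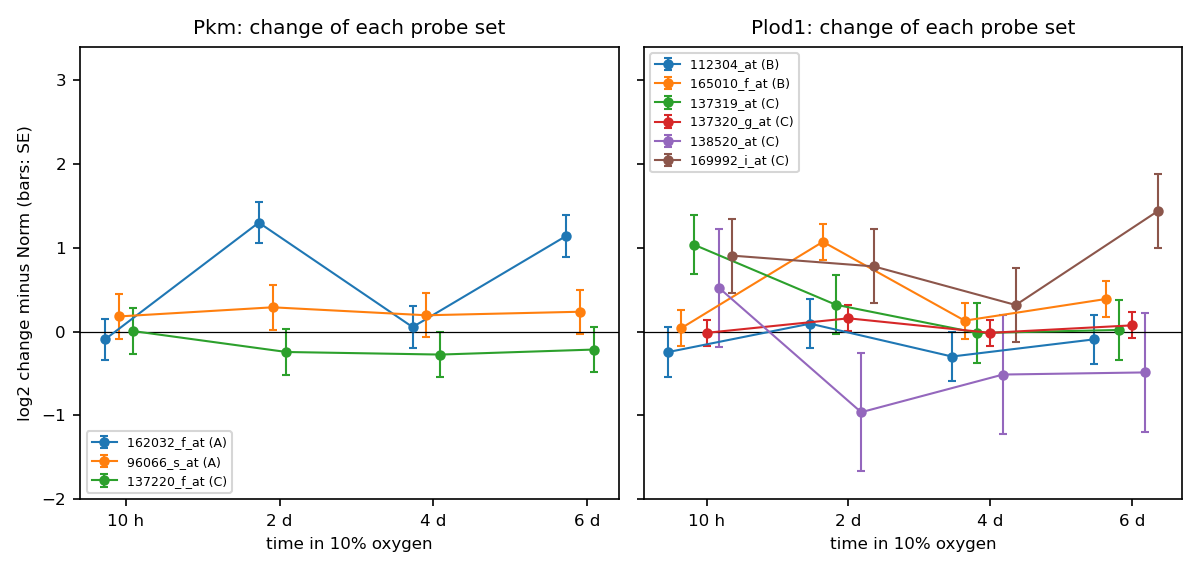
Log2 change minus Norm of each tested probe set of Pkm and Plod1 at 10 h, 2 d, 4 d and 6 d of 10% oxygen (points, with bars of 1 SE). Probe sets of 1 gene run apart: at 2 d Pkm spans -0.24 to 1.30 and Plod1 -0.96 to 1.07.

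Both rises at 2 d came from probe sets with the suffix _f_at, the mark of shared probes. Among all tested probe sets with that suffix, 32 of 2067 (1.55%) were called higher at 2 d and 15 (0.726%) lower, with a median change of 0.14. Among those with a plain _at suffix, 111 of 19929 (0.557%) were higher and 237 (1.19%) lower. The 2 d arrays were also those with the high Gapdh 3′ to 5′ ratio, and the part of either in the rises of Pkm and Plod1 was not tested. Over the 15 member genes with more than 1 tested probe set, the probe sets went opposite ways for 7 genes at 10 h, 9 at 2 d, 9 at 4 d and 7 at 6 d.

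Genes of collagen hydroxylation other than Plod1 did not pass. P4ha1 and P4ha2 encode catalytic subunits of prolyl hydroxylase. P4ha2 had 2069 and 1859 at 10 h, against 1437 on the array labelled Norm 1b, above all 7 other A arrays, and its change was 0.45 ± 0.21 (SE, adjusted p = 0.851 in limma). A further P4ha2 probe set lay between 0.07 and 0.76. P4ha1 was 0.28, 0.33, 0.23 and -0.04 on A, and -0.16, -0.33, -0.23 and -0.29 on B, which has both Norm arrays. Its C probe set lay between 0.00 and 0.35. Plod2, a second lysyl hydroxylase, had 1207 and 2239 at 10 h, against 2378 and 2576 in Norm, a change of -0.59 (adjusted p = 0.792), and all 8 hypoxia arrays were below both Norm arrays.

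Of the mitochondrial genes, Bnip3, a receptor for mitochondrial removal, had 678 on the array labelled Norm 1b, 1512 and 1324 at 10 h, 912 and 691 at 2 d, 622 and 580 at 4 d, and 1226 and 831 at 6 d. The 10 h arrays were above all 7 others and the 4 d arrays below all others. The 10 h change was 1.06 ± 0.31 (SE, adjusted p = 0.585 in limma), while the C probe set of Bnip3 was -0.07. Pdk1, the kinase that shuts pyruvate out of the citric acid cycle, lay between -0.10 and 0.20. Higd1a, which binds the respiratory chain, had 716 and 545 at 6 d, against 896 and 979 in Norm on B, a change of -0.58 (adjusted p = 0.512), while its A probe set was 0.10.

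The hormone and iron genes gave no call. Adm, the vasodilator adrenomedullin, was highest at 2 d on both its probe sets. On A it had 418 and 299 at 2 d, against 157 on the array labelled Norm 1b, which is below the floor, so that the change was at least 0.58 (adjusted p = 0.275 in limma). On C it had 1033 and 1116, against 741 and 458, a change of 0.88 (adjusted p = 0.166). Tfrc, the transferrin receptor of iron-taking cells such as red cell precursors, was -0.31, 0.46, 0.49 and 0.77 on B at 10 h, 2 d, 4 d and 6 d. Its C probe set was -0.47, -0.41, -0.01 and 0.19, and its A probe set lay between -0.16 and 0.23. Both its 6 d arrays, 2741 and 2559, were above the Norm arrays at 2019 and 1202 (adjusted p = 0.444). The summed signal of 7 red cell markers on A was 36882 and 47832 at 2 d, 17173 and 23039 at 4 d, and 36588 and 20184 at 6 d, against 17510 on the array labelled Norm 1b, and its part in the Tfrc values was not tested. Most of that sum is 1 probe set of the haemoglobin gene Hba-a1, with 29409 and 42018 at 2 d, against 13306 on the array labelled Norm 1b. Of the 7 markers, 4 were above and 2 below Norm at 2 d, with Epor and Gata1 below the floor on both 2 d arrays. Epo, which the kidney makes in adults, was at or near the floor of A, and Stc2, a secreted glycoprotein, lay between -0.06 and 0.21 on A and between -0.38 and -0.11 on B.

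Of the single members of the remaining roles, Car9, a carbonic anhydrase at the cell surface, had 379 and 617 at 6 d, against 203 and 323 in Norm, a change of 0.92 ± 0.56 (SE, adjusted p = 0.687 in limma). Gys1, glycogen synthase, was -0.21, -0.40, -0.29 and -0.32 on A, where all 8 hypoxia arrays were below the 2032 of the array labelled Norm 1b. Its C probe set was 0.28, 0.22, 0.04 and 0.01. Pfkfb3 and Pfkfb4 make the fructose bisphosphate that activates phosphofructokinase. Pfkfb4 was 0.46 at 2 d, with 1743 and 1536 against 1262 and 1120 in Norm, and Pfkfb3 lay between -0.23 and 0.13. None of these genes passed.

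The time points were also set against each other. The change itself does not use the Norm arrays, though they entered the filter and the spread behind the SE and p-values. The early side includes the 2 d arrays, with a Gapdh 3′ to 5′ ratio of 3.64 to 4.60. The part of that difference in this comparison was not tested. For 4 d and 6 d minus 10 h and 2 d, 15 of 58 member probe sets were higher and 43 lower (25.9% higher, against 48.9% of all probe sets), with a median of -0.12. The members were lower on balance on each array type, with medians of -0.10 on A, -0.16 on B and -0.18 on C, and without the A arrays labelled Norm 1b and 4 d 1a the median was -0.18. Only Ankrd37 passed, among 4 probe sets in all (0.0155%, with 0.0116% higher and 0.00388% lower), with -1.67 ± 0.16 (SE, adjusted p = 0.0240 in limma), a value that comes from 4 d, since the 6 d arrays were at 2111 and 2270. Bhlhe40 was at -0.60 (adjusted p = 0.223) and Bnip3 at -0.44 (adjusted p = 0.415). Without any 1 of the 8 hypoxia samples the Ankrd37 call was lost, with adjusted p-values between 0.0660 and 0.198.

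Counted by group, 6 member probe sets (10.3%, against 3.82% of all probe sets) had both 10 h arrays above all arrays of the other groups, and 1 (1.72%, against 3.53%) had them below. The 6 were those of Slc2a1, Bnip3, P4ha2, Bhlhe40 and Kdm3a on A and of Plod1 on C. At 4 d no member probe set was highest (0%, against 3.24%) and 5 (8.62%, against 3.28%) were lowest, both of Aldoa and those of Bnip3, Bhlhe40 and Ankrd37. At 2 d 4 were highest (6.90%, against 10.1%) and 1 lowest (1.72%, against 9.74%). At 6 d 2 were highest (3.45%, against 3.14%) and 2 lowest (3.45%, against 2.55%).

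Other genes of these pathways gave few calls. Of 48 further genes tested, 19 of glycolysis and 29 reported HIF targets, 24 were above Norm and 23 below at 10 h, 22 and 25 at 2 d, 19 and 28 at 4 d, and 24 and 24 at 6 d. At 2 d 1 gene fell on its representing probe set. Cited2, which competes with HIF for its coactivator, had 604 and 603, against 1990 on the array labelled Norm 1b, a change of -1.72 (adjusted p = 0.0249 in limma). A further probe set of Igfbp3, a binding protein of insulin-like growth factors, was at the floor at 2 d and fell by at least 1.42 on the log2 scale (adjusted p = 0.0212 in limma). It was at the floor at 4 d and 6 d too, with the same bound, but passed only at 2 d. The probe set that represents Igfbp3 had 319 and 327 at 2 d, against 1165 on the array labelled Norm 1b, and did not pass. Edn1, the vasoconstrictor endothelin, had 3370 and 3220 at 10 h, against 710, a change of 2.21 that did not pass (adjusted p = 0.282), and its 1.16 at 4 d did not pass either (adjusted p = 0.696). Lox, the lysyl oxidase that cross-links collagen, was 1.82 at 10 h (adjusted p = 0.650), Cxcl12, a chemokine, 2.06 at 6 d (adjusted p = 0.284), and Eno3, the enolase of muscle, -1.06 at 6 d (adjusted p = 0.339). The B probe set of Cxcl12 had 771 and 782 at 6 d, against 739 and 681 in Norm. Its other A probe sets had 842 and 798 at 6 d, against 557, and 1611 and 1171, against 589. Insig2, a regulator of sterol synthesis, was -0.99 at 2 d and Maff, a basic leucine zipper protein, -0.90 at 4 d, and neither passed. On the probe sets that represent Edn1, Lox and Cxcl12, the hypoxia array nearest to the array labelled Norm 1b was the A array labelled 4 d 1b. It had 1058, 447 and 1928, against 710, 463 and 1646. A further Edn1 probe set on A had 974 on 4 d 1b and 678 on the array labelled Norm 1b. There the 2 d arrays, at 582 and 585, and the 6 d arrays, at 727 and 764, were nearer.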

How the data were processed

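Total RNA of whole lung was hybridised to 1 array per sample and array type, 30 arrays in all, of which 29 were used. The authors deposited linear intensities, already summarised to probe sets by software not given in the sources used here. Trimmed means (2% off each end) lay between 800.2 and 800.4, so that the deposited scale was kept. Probe sets were named from the platform annotation, and promoters came from RefSeq.

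Low values were raised to the 40th percentile of their array type. A probe set was tested if 2 or more arrays exceeded that floor, and control probe sets were not tested. limma 3.58.1 in R 4.3.3 fitted 5 group means per array type, with a trended prior (eBayes), 6 comparisons and Benjamini-Hochberg adjustment over the 25801 probe sets of all 3 types. The number of arrays limits the precision. The labels do not say whether the 1a and 1b letters pair samples, and the main fit has no pairing. Same-letter deviations on B and C correlated between groups at -0.0765 to 0.0354, which cannot show whether samples were paired. The fit was tested on simulated data, with changes placed only at 2 d, in probe sets well above the floor and of low spread. That test cannot show how the fit does for members near the floor or with array labels in doubt. Of the members, those with a call are given in full, and values are given for the 3 largest changes each way against Norm, by 1 representing probe set of each gene, the one with a plain suffix, or another where none was tested, and the highest level. Of the further pathway genes, those with a call and the 2 smallest p-values per comparison are given. Other settings of normalization, floor, filter, prior, block, samples and adjustment were tried. The members and lists were chosen with earlier results of these data known.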

Additional observations from a re-analysis of the deposited data

How the results depend on the processing

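Single member changes were recomputed under other settings if they were called or among the 3 largest each way, and none turned its direction. Changes against Norm on A could not be recomputed without the array labelled Norm 1b, so that its label was not put to this test. The median change of the members was above 0 in 12 of 20 settings at 4 d and in 17 of 20 at 6 d. Member calls at 2 d, 2 as reported, numbered 3 with a filter of at least 5 arrays and with only the groups compared, 1 after median scaling, with adjustment within each array type and without the A arrays labelled Norm 1b and 4 d 1a, and 0 with no filter, with no trend in the prior and with the replicate block. With only the arrays of the groups compared, there were 0 at 4 d and 1 at 6 d, and with no trend 0 for late minus early. The causes were not tested. The median change of the members at 2 d, 0.22, was 0.0889 with no filter and 0.15 with the replicate block, for letters not said to pair the samples. With no filter it was 0.0385 for the mean of hypoxia and -0.0552 for late minus early, and after median scaling -0.19 for late minus early. Without both doubtful A arrays it was -0.0463 at 6 d and -0.0493 for the mean of hypoxia. Leaving out 1 sample gave 0 to 2 calls at 2 d, 0 to 1 at 4 d and 0 to 1 for late minus early. It gave medians of 0.0375 to 0.101 at 10 h, 0.10 to 0.22 at 2 d, -0.0581 to 0.0311 at 4 d, 0.00 to 0.0639 at 6 d, 0.0147 to 0.128 for the mean of hypoxia and -0.17 to -0.0683 for late minus early. The count of all probe sets called at 2 d, 480 as reported, was 217 to 733 under other settings and 23 to 439 without 1 sample. Under other settings it reached 73 at 10 h, 61 at 4 d, 64 at 6 d, 94 for the mean of hypoxia and 87 for late minus early. With 2 arrays a group, and 1 Norm array on A, a change near the array spread could not be detected, and several members lay at the floor.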
